A study of Oryza sativa with 18 samples.

Results

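The rice annotation describes 1536 of the 34716 loci in the gene table as non-protein coding, and these loci were followed through shoots and roots of Nipponbare seedlings grown with Zn, without Zn and after Zn resupply. A locus was a member when it carried a gene name and its description held the words non-protein coding or non-coding, in any case; no measured value entered the choice. Of the members, 1062 had a transcript of at least 2 exons (multi-exon loci) and 474 had only transcripts of 1 exon (single-exon loci). The single-exon loci are given apart, since isolated zeros were common among them. For 1426 members the description was non-coding alone, and for 110 the locus joined a non-coding transcript with a gene that had another description (merged loci).

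RNA was measured by poly(A) mRNA sequencing in 18 libraries, 3 for each of 6 groups, and every library came from a pool of 3 wild-type seedlings. ZPS and ZPR are shoots and roots of plants kept at 1.5 µM ZnSO4. ZMS and ZMR are shoots and roots of plants kept without Zn for 14 days. ZRS and ZRR are shoots and roots of such Zn-deprived plants returned to 1.5 µM ZnSO4 for 3 days. Values are FPKM, sequenced fragments scaled to the length of the transcript and to the number of fragments mapped in the library, so that levels can be set side by side between loci. Coordinates are those of the IRGSP-1.0 genome.

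Long non-coding RNAs are transcripts without a long open reading frame. Many carry a cap and a poly(A) tail like mRNAs, are spliced, and are found at lower levels than mRNAs and in fewer tissues. In plants they are known to act in the phosphate starvation response, where a transcript without a protein product binds a miRNA and shields its target, and in the control of flowering genes, where transcripts from the strand opposite a gene act on its chromatin. A transcript that runs opposite a gene is called a natural antisense transcript. Poly(A) selection captures only transcripts with a poly(A) tail.

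The label did not hold equally for all members. Among the 1426 loci described only as non-coding, 132 carried a GO, KEGG, KO or EC term of the kind given to proteins, such as ribosome (13 loci), chloroplast or plastid (20) and nucleus (41). These 132 are called loci with protein terms below. The remaining 1294 loci carried none (830 multi-exon, 464 single-exon) and are called loci without a term. Loci with protein terms had a median length of the longest transcript of 1957 bases and a median mean level of 10.3 FPKM, whereas multi-exon loci without a term had 965 bases and 0.213 FPKM and single-exon loci without a term had 585.5 bases and 0.0393 FPKM. Multi-exon loci outside the members had 1831 bases and 2.997 FPKM, so that in length and level the loci with protein terms stood nearer to the other multi-exon loci of the table than to the loci without a term.

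Facts of the libraries that bear on these loci were as follows. The deposited coverage per FPKM, a measure of depth, ranged from 3.67 (ZRR replicate 3) to 7.75 reads per base. ZRS replicate 1 stood apart, with 16.8% of its isoform FPKM in intronic, intergenic and other transcripts outside known exons against at most 5.14% in every other library. The summed level of 14 photosynthesis marker loci was 3575 to 6900.3 FPKM in shoots and 107 to 222 FPKM in roots, with 1 marker at 0 in each tissue, and that of 7 root marker loci was 748 to 2420.5 FPKM in roots and 4.73 to 17.2 FPKM in shoots, where 4 of them were at 0 in every library. The labelled tissues therefore carried their markers in all libraries.

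Most non-coding loci were present at low levels. A mean of 5 FPKM or more over the 18 libraries was reached by 201 members (13.1%), made up of 83 of the loci with protein terms (62.9%), 53 merged loci, 62 of 830 multi-exon loci without a term (7.47%) and 3 single-exon loci without a term, while 39.5% of the other multi-exon loci reached it. A mean of 50 FPKM or more was reached by 38 members, of which 23 carried protein terms, 11 were merged and 4 had no term. Values above 0 in all 18 libraries were found for 405 multi-exon loci without a term (48.8%) and 12 single-exon loci without a term (2.59%), against 74.5% of the other multi-exon and 7.36% of the other single-exon loci. No member was at 0 in every library, but nor was any other of the 34716 loci in the table. In the plot of loci by minimum level the multi-exon loci without a term lie below the other multi-exon loci, and the single-exon loci without a term below both, from 0.01 FPKM to where the curves near 0.

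**Figure D1:**
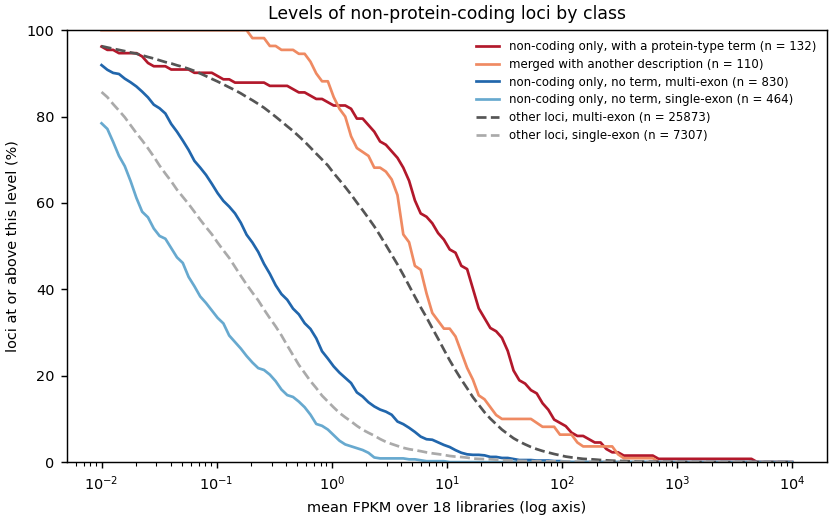
Percent of loci (vertical axis) whose mean over 18 libraries was at or above the FPKM on the horizontal axis (log scale), by class of locus. The curve of the loci with protein terms runs above that of other multi-exon loci at 5 FPKM (62.9% against 39.5%), and multi-exon loci without a term lie far lower (7.47%).

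Between 982 and 1051 members were above 0 in any one library, a number that overlapped between shoots (982 to 1046) and roots (994 to 1051). Their share of all FPKM did not overlap between the tissues, at 5.67 to 7.97% in the 9 shoot libraries and 2.30 to 2.69% in the 9 root libraries. Most of that gap lay in the loci with protein terms, which held 4.78% ± 0.688 (SD, n = 9) of the FPKM in shoots and 1.16% ± 0.132 (SD, n = 9) in roots. Within that class 1 locus, Os11g0707000, alone held 3.02% ± 0.686 in shoots and 0.0555% ± 0.0159 in roots (SD, n = 9 each). The loci without a term held 0.514% ± 0.0567 in shoots and 0.501% ± 0.0562 in roots (SD, n = 9 each), a difference smaller than the spread between libraries.

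The highest member, Os11g0707000 (chromosome 11, 28932977 to 28936076), had a mean of 4869.9 FPKM, the highest mean of any locus in the table. It carried the GO term for a Rubisco activator, the kind of protein that frees the carbon-fixing enzyme Rubisco of bound inhibitors, and its 9 shoot libraries lay between 7765 and 15215 FPKM (median 8983) against 107 to 272 (median 178) in roots. Every shoot library lay above every root library. Others among the highest also carried terms of proteins, as Os12g0189300 (glyoxylate cycle, 1145 to 1636 FPKM in shoots, 10.3 to 42.1 in roots), Os06g0264800 (thylakoid, 377 to 696 and 6.59 to 14.1), Os07g0448800 (water channel, mean 308.5) and Os03g0390600 (nucleosome and ribosome, mean 227). Os12g0291100, a plastid locus with a carbon fixation entry, was at 292 to 703 FPKM in shoots and at 33.8 to 77.0 in 8 of 9 root libraries, with 2.86e-05 in ZMR replicate 2.

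Multi-exon loci without a term that were high in at least 1 tissue were few. Os12g0560900 was at 57.1 to 92.0 FPKM in shoots and at 125 to 171 in 8 root libraries, with 0 in ZPR replicate 2. Os10g0167401 was at 7.87 to 45.3 in shoots and 32.5 to 86.7 in roots, and lies opposite a gene for enolase, an enzyme of glycolysis. Os06g0686700 split by replicate number rather than by treatment. Its replicate 1 libraries were at 76.4 (ZPS), 70.9 (ZMS), 55.3 (ZRS), 168 (ZPR), 115 (ZMR) and 186 (ZRR) FPKM. Its replicates 2 and 3 were at 13.7 to 21.0 in shoots and 26.6 to 42.4 in roots, so replicate 1 lay above both others in every group.

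The loci that varied least were found on both sides of the split by term. Among the 145 multi-exon loci described only as non-coding with a mean of at least 5 FPKM the median coefficient of variation over the 18 libraries was 0.487, and the lowest values were 0.134 (Os05g0277300, 5.76 to 8.79 FPKM), 0.144 (Os05g0407200, 6.23 to 11.1), 0.146 (Os12g0567200, 14.1 to 24.7) and 0.147 (Os03g0390600). The first and second of these carried protein terms as well. Over the 62 of these loci without a term the coefficient ran from 0.146 to 1.42, with a median of 0.520, and Os05g0530600 (3.91 to 8.62 FPKM), Os08g0562750 (11.9 to 43.9) and Os05g0566450 (5.66 to 14.05) followed Os12g0567200 at the low end.

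Non-coding loci lay opposite other loci more often than the rest of the table did. An overlap with a locus on the other strand was recorded for 1003 members (65.3%), for 647 of the multi-exon loci without a term (78.0%) and 244 of the single-exon loci without a term (52.6%), but for 45 of the loci with protein terms (34.1%). Among other loci it was recorded for 35.0% of the multi-exon and 25.1% of the single-exon loci. Whether the counting used strand is not given in the sources used here, so reads of a locus and reads of its partner on the other strand cannot be told apart, and the values of antisense loci below are uncertain for that reason.

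Isolated zeros were a property of single-exon loci, inside and outside the members. Among loci with a mean above 0.5 FPKM, a library at 0 whose group also held a library over 1 FPKM was present for 49 of 65 single-exon members (75.4%) and for 24 of 505 multi-exon members (4.75%). In the other loci it was present in 62.1% of the single-exon and 3.53% of the multi-exon loci. The 3 highest single-exon members show the form this takes. Os02g0810000 was at 26.0 FPKM in ZPS replicate 3, at 29.7 to 34.7 in ZPR and ZMR replicates 2 and 3 and ZRR replicate 2, and at 0 in the other 12 libraries. Os01g0559900 was at 0 in 12 libraries and at 12.98 to 25.5 in the other 6. Os04g0460900 was at 90.9 FPKM in ZRS replicate 3, at 12.1 in ZMR replicate 1 and at 0 in the other 16. A group mean says little about such a locus, as its 3 libraries were split between 0 and several FPKM.

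Shoots and roots differed in many non-coding loci, and the question there was which of them belonged to a tissue. Tests were made with limma on log2(FPKM + 0.5), over loci that reached 0.5 FPKM in at least 3 libraries, and a locus was called at a difference of at least 1 on that scale with a Benjamini-Hochberg adjusted p of at most 0.05 over all loci tested. This passed 689 members (589 multi-exon, 100 single-exon) of 24431 loci, and fold changes of low loci are understated on this scale. A locus under 0.5 FPKM throughout a tissue passed the filter only through the other tissue. This was so for Os04g0497250, Os06g0163701, Os03g0733200, Os04g0684300, Os01g0201600 and Os02g0648000 below, among others. The p-values of such loci are therefore no support separate from the filter. In bulk tissue, fewer cells of a type and less RNA per cell cannot be told apart.

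With Zn supplied (ZPR against ZPS), 194 of 689 members were called (28.2%), 83 higher and 111 lower in roots, where 34.1% of all loci were called (20.5% higher, 13.5% lower). Without Zn (ZMR against ZMS) 172 were called, 74 higher and 98 lower, with 31.9% over all loci (18.5% higher, 13.4% lower), and after resupply (ZRR against ZRS) 219, 135 higher and 84 lower, with 39.4% over all loci (27.6% higher, 11.8% lower). Multi-exon members made up 180, 158 and 210 of these calls and single-exon members 14, 14 and 9. With quantile normalization, which moved the median over all loci from 0.38 to 0.14, from 0.36 to 0.14 and from 0.58 to 0.16 on the log2 scale, the splits became 54 higher and 128 lower, 48 and 120, and 60 and 123, so the balance of the directions rests on the scaling. Without ZRS replicate 1 the last comparison gave 195 calls, 104 higher and 91 lower. The shares of all loci called under these alternatives are not given here.

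The 3 tissue comparisons use different libraries, and 120 members (46 higher and 74 lower in roots) were called in the same direction in all of them. This is 17.4% of the members tested against 24.6% of all loci. By direction it was 6.68% higher and 10.7% lower, against 14.7% and 9.98% over all loci. It held for 118 multi-exon loci (46 higher, 72 lower) and 2 single-exon loci (both lower). By class it was 31 of 114 loci with protein terms (27.2%; 8 higher, 23 lower), 36 of 107 merged loci (14 higher, 22 lower) and 51 of 369 multi-exon loci without a term (13.8%; 24 higher, 27 lower). No member was called in opposite directions.

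Loci with protein terms led the list of those lower in roots. Os06g0148200, with a term of lipid breakdown, differed by -7.01 (SE 0.44, adjusted p = 6.45e-09 by limma) in ZPR against ZPS, followed by Os11g0116000 (response to wounding, -6.94), Os12g0189300 (-6.22), Os01g0822900 (phospholipid transfer, -6.10), Os06g0264800 (-6.05), Os11g0707000 (-5.94, SE 0.35) and Os09g0538000 (RNA binding, -5.57). In the other direction Os04g0684300 carried the GO term for the Casparian strip, the sealed wall of the root endodermis, and was at 0.0629 to 0.413 FPKM in shoots and 42.5 to 80.5 in roots (difference 6.33, SE 0.22, adjusted p = 5.84e-11). Os04g0653600, with terms of root development and ethylene signalling, was also higher in roots (2.47). These loci are protein-like by their terms, and each kept its call and its direction under all 26 alternatives tried. They were chosen for large called differences with ZPR apart from ZPS, so this is no separate support. Os04g0684300 stayed under 0.5 FPKM in all shoot libraries and Os09g0538000 in all root libraries, so both passed the filter only through the other tissue.

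Multi-exon loci without a term were called in both directions. Those named below were chosen for large called differences with ZPR apart from ZPS, so that separation is no finding about them. The share of all loci with tissues apart is not given here. The most root-biased by fold was Os04g0497250 (chromosome 4, 24864343 to 24866466), at 0 to 0.0644 FPKM in the 9 shoot libraries and 3.12 to 34.6 (median 16.3) in the 9 root libraries. The tissues did not overlap, and the difference was 4.25 (SE 0.59, adjusted p = 2.6e-05) with Zn, 5.30 without Zn and 5.20 after resupply. Os06g0163701 (chromosome 6, 3234433 to 3239163) was at 0.0461 to 0.396 FPKM in shoots and 6.23 to 11.6 in roots (difference 3.79, SE 0.26, adjusted p = 1.7e-08). Os03g0733200 was at 0 to 0.399 and 4.62 to 18.9 (3.72, SE 0.41, adjusted p = 2.52e-06).

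Os04g0640850 (chromosome 4, 32604965 to 32608750) had the highest mean level among the 6 loci without a term described here as called higher in roots in all 3 comparisons, at 4.62 to 13.5 FPKM in shoots and 46.4 to 76.2 in roots (difference 2.57, SE 0.24, adjusted p = 3.66e-07). Os11g0634902 was at 0.501 to 1.48 in shoots and 8.25 to 17.4 in roots (2.91, SE 0.22, adjusted p = 3.64e-08), and Os11g0520950 at 0.344 to 0.635 and 4.40 to 8.40 (2.59, SE 0.21, adjusted p = 9.05e-08). In none of these 6 loci did a shoot library reach the lowest root library, which for ZPR and ZPS was a condition of the choice.

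In the shoot direction, Os11g0171350 (chromosome 11, 3489281 to 3491371) had the largest difference of a locus without a term. Its shoot libraries lay between 9.64 and 277 FPKM (median 254), with replicate 1 of ZPS (12.7) and ZRS (9.64) and replicate 3 of ZRS (24.1) far below the others, and its roots at 0.922 to 5.19 (difference -5.25, SE 1.16, adjusted p = 0.00173). The tissues did not overlap, but the shoot libraries fell into a low and a high set that crossed the treatments. Os06g0480500 (chromosome 6, 16292587 to 16305206) was at 12.1 to 47.0 FPKM in shoots and 0.158 to 0.633 in roots (-4.96, SE 0.35, adjusted p = 2.07e-08), and Os02g0750100;Os02g0750200 at 46.9 to 416 and 4.75 to 13.9 (-4.87, SE 0.64, adjusted p = 1.49e-05).

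Further loci were lower in roots in every library. Os06g0232650 was at 56.9 to 97.5 FPKM in shoots and 3.06 to 7.77 in roots (-3.76, SE 0.28, adjusted p = 3.88e-08). Os01g0201600 was at 0.914 to 14.8 and 0 to 0.0696 (-3.62, SE 0.55, adjusted p = 7.25e-05). Os03g0582900 was at 3.98 to 6.42 and 0.0712 to 0.530 (-3.21, SE 0.18, adjusted p = 2.31e-09). The plot of 12 loci by library gives all values.

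**Figure D2:**
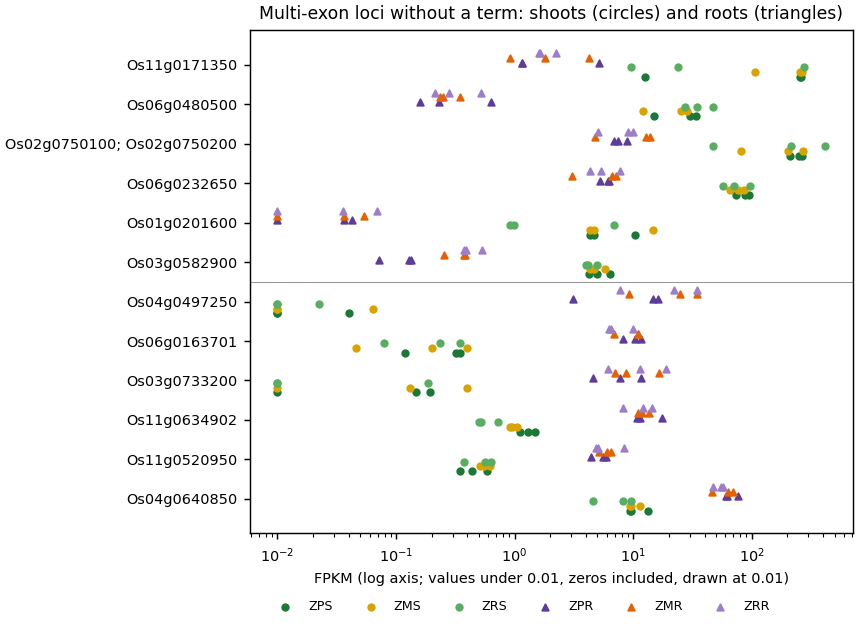
FPKM (log axis) of 12 multi-exon loci without a protein term in each of 18 libraries, with a row for each locus. Circles are shoots, triangles are roots and the colour gives the group. Values under 0.01 and zeros are drawn at 0.01. The shoot and root libraries do not overlap in any row, and Os11g0171350 spreads from 9.64 to 277 FPKM within shoots. Separation of ZPR from ZPS was a condition in choosing loci of this kind.

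Only 2 single-exon members were called in all 3 tissue comparisons, both lower in roots. Os04g0384650 was at 2.34 to 7.79 FPKM in ZPS and ZMS, at 11.9, 0 and 1.14 in ZRS and at 0 to 0.249 in roots (difference -2.70 with Zn, adjusted p = 0.00833), so that 1 shoot library was at 0. Os02g0648000 was at 0.675 to 2.56 in shoots and 0 to 0.0565 in roots (-1.997, adjusted p = 3.64e-05). It lies within Os02g0647900, an aldehyde dehydrogenase gene on the same strand, which was also lower in roots (-5.95).

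The loci opposite each other moved together between tissues. For 229 tested multi-exon loci without a term, a tested locus that was no member overlapped on the other strand, and the highest such partner was taken. The non-coding locus lay below its partner in 207 pairs (90.4%), at a median of 9.96% of the partner's level, with median levels of 0.928 FPKM for the non-coding loci and 14.3 FPKM for the partners. The differences between ZPR and ZPS had the same sign in 200 pairs (87.3%), with a Pearson r of 0.717 across the 229 pairs, and the median Pearson r of the levels over the 18 libraries was 0.705. Each pair shares its libraries, and its reads cannot be told apart by strand.

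Loci that lay within 2000 bases without overlapping gave a comparison. In 137 such pairs the non-coding locus lay below its neighbour in 96 (70.1%) and the sign was shared in 73 (53.3%). The r across pairs was 0.154 and the median r over libraries was 0.149. The neighbours were lower than the overlapping partners, at a median of 3.97 FPKM against 14.3 FPKM. In 93 of the pairs the non-coding locus also overlapped another locus, and r across those pairs was -0.0238. In the 44 pairs without any overlap r was 0.326, and the sign was shared in 25 (56.8%). A Pearson r over 0.5 across the libraries was found in 162 of the 229 overlapping pairs and in 39 of the 137 neighbouring pairs. These are descriptions, without a test, and pairs are not independent replicates.

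**Figure D3:**
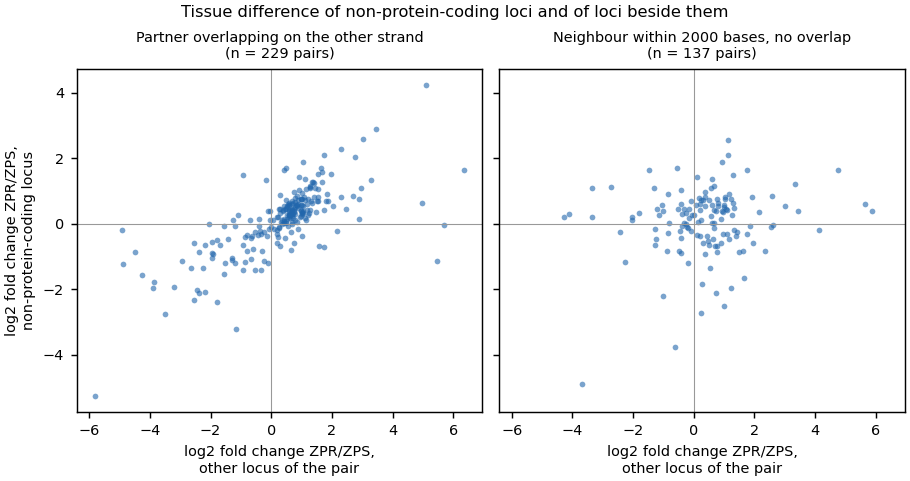
Difference in log2(FPKM + 0.5) between roots and shoots with Zn (ZPR against ZPS) of multi-exon non-coding loci without a term (one axis) against the same difference of the partner locus (the other axis), for 229 partners that overlap on the other strand and 137 neighbours that do not overlap. The overlapping pairs follow a rising band (r = 0.717), and the neighbours scatter (r = 0.154).

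Of the 44 multi-exon loci without a term called higher in roots in ZPR against ZPS, 26 overlapped a locus on the other strand, 25 had a tested partner there and 22 of these partners were called higher as well, with none called lower. Of the 50 called lower, 32 had such an overlap, 29 a tested partner, 21 partners were called lower and 1 higher. Over all loci 20.5% were called higher and 13.5% lower in this comparison. The share for partners of loci not called is not given here. Reads of a pair cannot be told apart by strand, so the calls of a pair are not separate. The following pairs show the partners by name.

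Os11g0171350 runs opposite Os11g0171300, the gene of a chloroplast fructose-bisphosphate aldolase of carbon fixation, which was at 3708 to 7541 FPKM in shoots and 44.9 to 151 in roots (difference -5.80). Os04g0497250 runs opposite Os04g0497200, a putative membrane-bound glucanase of the kind used in cellulose synthesis, at 1.51 to 2.26 FPKM in shoots and 41.0 to 104 in roots (5.11), and the pair had an r of 0.939 over the 18 libraries. Os11g0634902 runs opposite Os11g0634800, similar to an adenylyl-sulfate kinase of sulfur assimilation, at 0.600 to 2.32 and 16.9 to 29.5 FPKM (3.45, r = 0.993). In the pairs of the aldolase and the glucanase every library of the partner lay above every library of the non-coding locus in the same tissue, while the ranges of the pair of the kinase overlapped.

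Os11g0520950 runs opposite the conserved hypothetical gene Os11g0520500, at 0.876 to 1.37 FPKM in shoots and 7.54 to 14.7 in roots (3.03, r = 0.988). Os06g0232650 stands outside the 229 pairs, as the locus opposite it, Os06g0232600, is itself a member with a protein term (glutathione transferase). That locus was the lower of both in shoots (4.47 to 10.8 FPKM) and in roots (0.444 to 1.61), with a difference of -2.92. The sign was shared in 200 of the 229 pairs, so not in all, and the following locus was itself not called. Os12g0567200, one of the least variable loci, differed by -0.23 between ZPR and ZPS (adjusted p = 0.293), while the Myb transcription factor gene Os12g0567300 opposite it was at 5.21 to 12.4 FPKM in shoots and 35.9 to 65.3 in roots (2.16, adjusted p = 1.51e-06), and the pair had an r of -0.270.

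Zn supply gave no called change in any member. The question here was which non-coding loci respond to Zn deprivation and whether resupply returns them. Of 548 members tested in shoots (492 multi-exon, 56 single-exon) 0 were called in ZMS against ZPS, where 0.0878% of 20512 loci were called, 0 in ZRS against ZMS (0.0683% of all loci) and 0 in ZRS against ZPS (0.0244%). Of 584 members tested in roots (523 multi-exon, 61 single-exon) 0 were called in ZMR against ZPR (0.046% of 21717 loci), 0 in ZRR against ZMR (0.124%) and 0 in ZRR against ZPR (0.023%). The difference of the response between roots and shoots was called in 0 of 689 members (0.0655% of all loci). At such background shares fewer than 1 call in each comparison would correspond to the number of members tested. Without ZRS replicate 1, ZRS against ZMS gave 1 call (the single-exon locus Os01g0243450, below) and ZRS against ZPS 0.

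At an unadjusted p of limma under 0.05 the members stood near all loci. In shoots this held for 10 members in ZMS against ZPS (1.82%, all loci 1.68%), 30 in ZRS against ZMS (5.47%, all loci 5.84%) and 25 in ZRS against ZPS (4.56%, all loci 4.14%). In roots it held for 23 in ZMR against ZPR (3.94%, all loci 3.56%), 19 in ZRR against ZMR (3.25%, all loci 3.51%) and 21 in ZRR against ZPR (3.60%, all loci 4.41%). For the difference between the tissues it held for 22 members (3.19%, all loci 2.89%). In the 6 Zn comparisons, in the order above, multi-exon members were at 1.22, 5.49, 4.27, 3.25, 2.68 and 2.87%. Single-exon members were at 7.14, 5.36, 7.14, 9.84, 8.20 and 9.84%, of 56 tested in shoots and 61 in roots. Loci with protein terms were at 0.901, 9.91, 10.8, 2.73, 3.64 and 1.82%. The share of all single-exon loci is not given here.

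These counts moved with single libraries, and the shares over all loci moved with them. Without ZRS replicate 2 they were 82 members in ZRS against ZMS (15.3%, all loci 20.4%) and 68 in ZRS against ZPS (12.7%, all loci 14.3%), and without ZPS replicate 2 the latter was 14 (2.62%, all loci 2.47%). Without ZMS replicate 1 there were 26 in ZMS against ZPS (4.93%, all loci 2.83%). Without ZRR replicate 1 there were 39 in ZRR against ZMR (6.91%, all loci 8.65%) and 38 in ZRR against ZPR (6.74%, all loci 9.85%), and without ZRR replicate 3 there were 12 in ZRR against ZMR (2.12%, all loci 3.02%). In ZRR against ZPR there were 35 without ZPR replicate 1 (6.21%, all loci 6.13%). The count was 13 without ZPR replicate 3 (2.25%, all loci 3.08%) and 12 without ZMR replicate 3 (2.09%, all loci 3.86%). The replicate number was also entered as a block in the fit. The comparisons taken as paired then gave 23 members in ZMS against ZPS (4.20%, all loci 2.59%) and 50 in ZRS against ZMS (9.12%, all loci 9.45%). In ZMR against ZPR, also taken as paired, there were 32 (5.48%, all loci 4.93%). ZRR against ZPR, not taken as paired, gave 39 (6.68%, all loci 6.31%).

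Multi-exon loci that came nearest to a call, with no overlap between the groups, are given with all their values. That the groups compared stood apart was a condition of the choice and is no finding about these loci. The share of all loci with groups apart is not given here. Os04g0675000 (chromosome 4, 34456966 to 34464032, up to 7 exons) was at 22.0, 21.5 and 21.3 FPKM in ZPR, at 10.9, 11.3 and 11.1 in ZMR and at 13.3, 12.5 and 11.8 in ZRR. The libraries without Zn and after resupply all lay below those with Zn, and its difference in ZMR against ZPR was -0.93 (SE 0.11, adjusted p = 0.054), short of both thresholds. In shoots it was at 4.76 to 8.48 FPKM with overlapping groups.

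Os09g0280750 had ZPR values of 1.21, 0.841 and 0.966 FPKM, ZMR values of 3.21, 2.99 and 2.23 and ZRR values of 0.847, 1.30 and 2.27 (ZMR against ZPR 1.13, adjusted p = 0.534). The merged locus Os06g0132550;Os06g0132450, which joins a non-coding transcript with a gene similar to an alpha/beta hydrolase, had ZPR values of 3.33, 3.02 and 3.002, ZMR values of 7.12, 6.18 and 9.16 and ZRR values of 4.83, 4.00 and 2.79 (1.13, adjusted p = 0.244, and -0.88, adjusted p = 0.746, for ZRR against ZMR). Both were above all ZPR libraries in all ZMR libraries, and neither passed the test.

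In shoots, Os05g0199700 was at 14.8, 11.3 and 11.2 FPKM in ZPS, 8.92, 7.62 and 7.70 in ZMS and 11.9, 10.0 and 11.7 in ZRS (ZMS against ZPS -0.59, adjusted p = 1). Os03g0781501 was at 2.58, 2.75 and 2.45 in ZPS, 5.47, 3.75 and 3.99 in ZMS and 3.39, 5.14 and 2.66 in ZRS (0.65, adjusted p = 1). Os03g0832800, with a protein term of cutin synthesis, was at 1.27, 0.749 and 0.769 in ZPS, 3.67, 3.59 and 2.04 in ZMS and 0.429, 1.03 and 1.50 in ZRS (1.32, adjusted p = 1). In all 3 the groups with and without Zn did not overlap, as the choice required, but none passed the test over 20512 loci.

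After resupply, Os10g0364600, which lies opposite a gene similar to a protein translocase, was at 20.8, 18.9 and 18.3 FPKM in ZMS and 13.6, 12.5 and 11.3 in ZRS (-0.62, adjusted p = 0.597), with 18.4, 18.8 and 19.5 in ZPS. Os02g0822600, with ribosome terms, was at 123, 122 and 110.1 in ZMS and 70.6, 70.4 and 63.2 in ZRS (-0.80, adjusted p = 0.544), with 80.5, 96.9 and 113 in ZPS. Os02g0273800, with a term of ribonuclease P, which trims tRNA precursors, was at 12.4, 10.4 and 10.1 in ZMS and 3.74, 6.70 and 5.26 in ZRS (-1.03, adjusted p = 0.597). All 3 were lower in every ZRS library than in any library without Zn, and also than in any ZPS library.

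In roots, Os04g0682051 was at 5.35, 5.32 and 4.92 FPKM in ZMR and 6.34, 7.63 and 8.47 in ZRR (0.48, adjusted p = 0.983), with 6.49, 7.59 and 7.18 in ZPR. Os04g0449900, with a term of poly(A) binding, was at 98.4, 119 and 121 in ZMR and 143, 205 and 308 in ZRR (0.89, adjusted p = 0.983), with 159, 188 and 182 in ZPR. Both were lowest without Zn in every library, and neither passed the test.

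**Figure D4:**
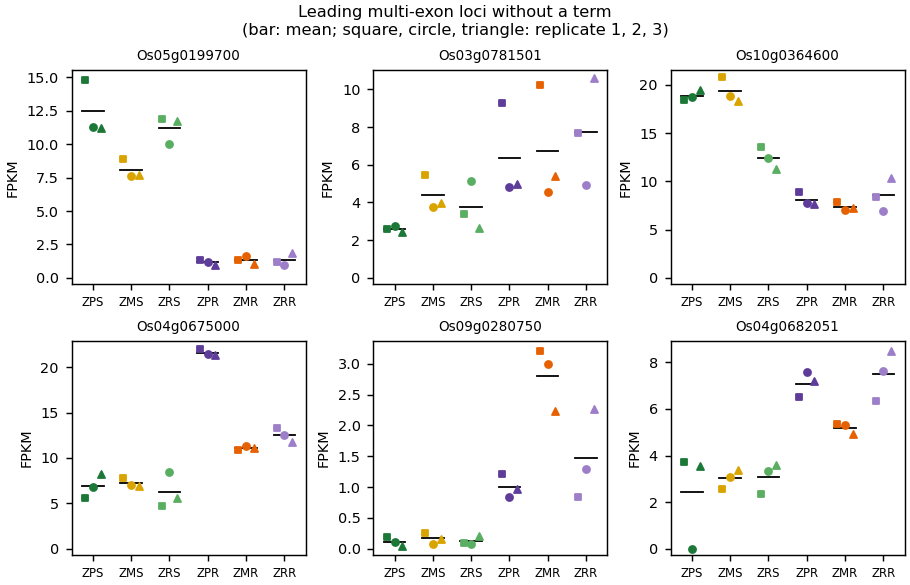
FPKM of 6 multi-exon non-coding loci without a term in each library by group, with a bar at the group mean and a square, circle and triangle for replicates 1, 2 and 3. Os04g0675000 shows ZPR at 21.3 to 22.0 above ZMR at 10.9 to 11.3, and none of the 6 passed the test over all loci.

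Single-exon loci could be at 0 in one Zn group and present in another. A group at 0 in all 3 libraries beside a group of the same tissue at 1 FPKM or more in all 3 was found for 4 of 474 single-exon members (0.844%), against 45 of 7307 other single-exon loci (0.616%) and 56 of all 34716 loci (0.161%). Os01g0243450 was at 4.75, 3.57 and 3.56 FPKM in ZPS, at 0 in all 3 ZMS libraries and at 0, 3.03 and 1.96 in ZRS (ZMS against ZPS adjusted p = 0.532). In roots it was at 7.65 in ZPR replicate 1 and at 0 in the other 8 libraries.

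The 3 ZPR libraries of Os06g0505501 had 5.03, 1.995 and 3.36 FPKM, its ZMR libraries 0 and its ZRR libraries 0, 1.63 and 3.20 (ZMR against ZPR adjusted p = 0.38). In shoots the order was the other way, with 3.63, 0 and 0 in ZPS and 3.30, 2.27 and 2.59 in ZMS. Os04g0491901 was at 0 in all ZPR libraries, at 0.548, 2.93 and 2.07 in ZMR and at 2.78, 1.97 and 2.04 in ZRR (ZMR against ZPR adjusted p = 0.241), and in shoots at 0.672, 0 and 0 in ZPS, at 0.485, 2.0003 and 3.16 in ZMS and at 2.70, 0 and 1.09 in ZRS, where its groups with and without Zn overlapped. Os01g0322700 was at 0, 1.14 and 0.533 in ZPS, at 0 in ZMS and at 2.99, 3.77 and 3.36 in ZRS (ZRS against ZMS adjusted p = 0.0588). None of the 4 passed the test, and no fold is given against a group listed at 0. Os05g0528701 was at 2.47, 0 and 2.96 in ZPS, 0 in ZMS and 2.52, 0 and 1.55 in ZRS, and at 10.1 in ZPR replicate 1 only among the ZPR libraries. Its name also stands on a second locus on the other strand. Os04g0623901 was at 1.12, 0 and 0.748 in ZMS and 0.327 in 1 ZRS library, and at 0 elsewhere; it was too low to be tested.

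Single libraries decided the calls of these loci as well, also where the library was of a group not compared, which only shares the estimate of the spread. Os01g0243450 was called in ZMS against ZPS without ZRS replicate 1 (adjusted p = 0.00224), and Os01g0322700 in ZRS against ZMS without ZPS replicate 1 (adjusted p = 0.00971) or ZPS replicate 2 (adjusted p = 0.0251). Os06g0505501 was called in ZMR against ZPR without ZRR replicate 1 (adjusted p = 0.0469), and Os04g0491901 without ZMR replicate 1 (adjusted p = 0.0185).

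**Figure D5:**
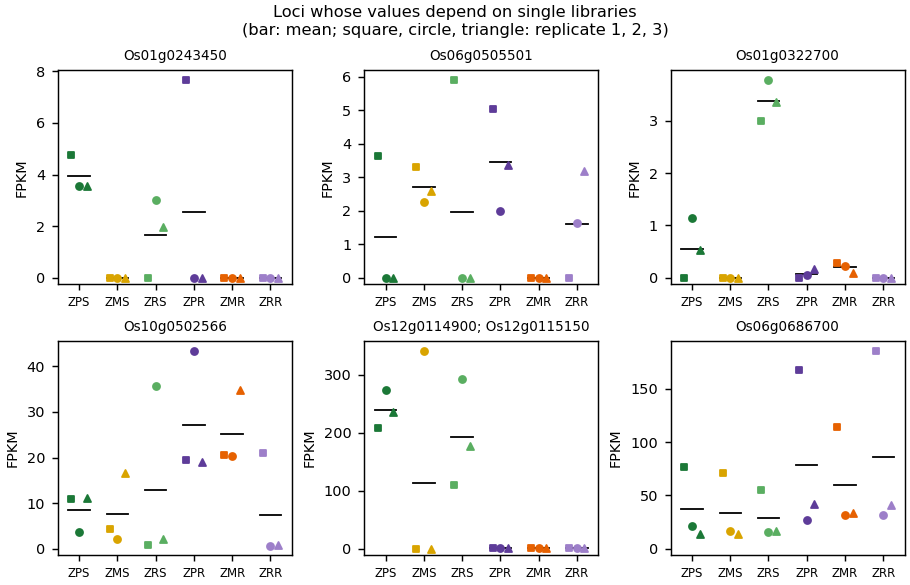
FPKM of 6 loci whose values turn on single libraries, by group, with a bar at the group mean and a square, circle and triangle for replicates 1, 2 and 3. Os06g0686700 has its replicate 1 highest in all 6 groups, and Os12g0114900;Os12g0115150 is near 0 in ZMS replicates 1 and 3 and at 341 FPKM in ZMS replicate 2.

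A pair of multi-exon loci had Zn values decided by 1 library. The merged locus Os12g0114900;Os12g0115150, which overlaps 3 lipid transfer protein loci on the other strand, was at 209, 275 and 237 FPKM in ZPS, 0.091, 341 and 0.056 in ZMS and 111, 293 and 177 in ZRS (ZMS against ZPS -5.63, adjusted p = 1). Without ZMS replicate 2 it was called, at -8.70. Os10g0502566 was at 20.5, 20.4 and 34.7 FPKM in ZMR and 20.9, 0.507 and 0.792 in ZRR (-3.04, adjusted p = 0.983), and without ZRR replicate 1 it was called at -4.45 (adjusted p = 0.0134). With all 9 libraries of the tissue neither passed.

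Members beside Zn transport genes were looked at for their position. The ZIP family imports Zn into cells and several of its genes are induced when Zn is short. Os07g0232850, a single-exon locus (chromosome 7, 7396993 to 7397516), lies opposite Os07g0232800, similar to a ZIP1 Zn transporter. The transporter was at 5.41, 7.97 and 7.14 FPKM in ZPS, 44.9, 53.5 and 53.8 in ZMS and 5.90, 11.2 and 18.4 in ZRS (ZMS against ZPS 2.81, adjusted p = 0.0381). Its root values were 0.487, 0.855 and 0.909 FPKM with Zn, 16.2, 14.1 and 14.3 without Zn and 0.636, 1.14 and 1.20 after resupply (3.63, adjusted p = 0.000716, and -3.38, adjusted p = 0.000795, on resupply). The transporter was called higher without Zn in both tissues and lower on resupply in roots. In shoots every ZRS library also lay below every ZMS library, but ZRS against ZMS was not called.

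The non-coding locus opposite it was at 0.175, 0.184 and 0.107 FPKM in ZPS, 3.03, 0.809 and 0 in ZMS and 0.120, 0.519 and 0.307 in ZRS (ZMS against ZPS 1.01, adjusted p = 1). In roots it was at 0 in all ZPR libraries, 0.722, 0.204 and 0.111 in ZMR and 0 in all ZRR libraries, and was too low to be tested. The root values were above 0 only without Zn, at levels far under those of the transporter, and reads from both strands cannot be told apart here. Of 43 loci called in any Zn comparison, 0 were members, and 2 members overlapped such a locus, Os07g0232850 and Os08g0120550.

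Other members near Zn genes were not called. Os04g0613100, opposite the zinc transporter gene Os04g0613000, was at 0 to 0.313 FPKM over the 18 libraries and was too low to be tested. Its ZRS libraries (0, 0.0302 and 0.00974) all lay below its ZPS libraries (0.239, 0.0470 and 0.0894), and no other pair of its Zn groups within a tissue stood apart. Os08g0100300, beside the ZIP-like gene Os08g0100200, was at 0.304 to 2.06 in shoots and 0.418 to 2.19 in roots. Os02g0832833, near a metal tolerance protein gene, was at 0 to 0.243. The merged locus Os01g0837900;Os01g0837800, which joins a gene similar to a metal tolerance protein with a non-coding transcript, was at 12.9 to 23.2 FPKM in shoots and 11.5 to 16.2 in roots, with overlapping Zn groups in both tissues.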

How the data were processed

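The authors aligned the paired reads to IRGSP-1.0 with TopHat and Bowtie2, allowing several alignments per read. They deposited FPKM per locus and per isoform, without pooling replicates. The paper names Cufflinks for the FPKM, but whether the deposited values came from it was not checked. They also deposited coverage (signal) per isoform, which was used only as a measure of depth. How the loci were assembled and whether strand was used in counting are not given in the sources used here. Reads that fit several places can blur near-identical loci.

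FPKM values were taken as log2(FPKM + 0.5) for loci at 0.5 FPKM or more in at least 3 libraries and tested with limma 3.58.1 in R 4.3.3, over the 9 libraries of a tissue for the Zn comparisons and over all 18 for the tissue comparisons and the difference of responses. P-values were adjusted by Benjamini-Hochberg over all loci tested. Tables were handled with Python 3.11.15, pandas 2.3.3 and numpy 2.4.6, and figures drawn with matplotlib 3.10.9. The fit was checked on simulated data with known changes. Each library is a pool of 3 seedlings, so p-values measure the spread between pools. An exact test of 3 against 3 libraries cannot give a p under 0.1 and was not used.

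Named are the multi-exon loci with the smallest p among those whose groups stayed apart (3 for each of 4 Zn comparisons), those of largest difference called in all 3 tissue comparisons, those of highest level or lowest variation, loci that the study names, loci within 2000 bases of Zn transport genes and single-exon loci with a group at 0. Loci without a term of the same kinds, loci called under an alternative and loci seen in 1 tissue only were added after their values were seen. A search for miRNA precursors or targets was not made. The members and lists were chosen with earlier results of these data known.

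Same-numbered libraries deviated together in ZMS against ZPS (r = 0.485, 0.180 and 0.174 for replicates 1, 2 and 3), ZRS against ZMS (0.375, 0.236 and 0.131) and ZMR against ZPR (0.422, 0.144 and 0.124). Pairing was read there from the data, as the labels give only the number. In these comparisons 2, 5 and 3 libraries, in that order, deviated most like the same-numbered library of the other group. In every other comparison 1 or more pairs had an r at or under 0.1. The fits behind the calls and adjusted p-values given in the Results left pairing out. The replicate block was used only as an alternative. Alternatives covered the pseudocount, the filter, quantile normalization, zeros taken as missing, the replicate block, the libraries in the fit and each library left out.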

Additional observations from a re-analysis of the deposited data

How the results depend on the processing

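The count of Zn calls among non-coding loci changed with the handling of zeros and with single libraries. Where zeros were taken as missing, a 0 was left out only if another library of its group was above 1 FPKM. Groups at 0 throughout kept their zeros. That rule removes the spread of groups split between 0 and present and can leave 1 library in a group. Calls made under it are therefore no separate evidence of a Zn response. With zeros taken as missing, 2 members were called in ZMS against ZPS, 3 in ZRS against ZMS, 2 in ZMR against ZPR, 2 in ZRR against ZMR, 3 in ZRR against ZPR and 7 for the difference of the responses, all of them single-exon loci. With only the libraries compared in the fit, 1 was called in ZMS against ZPS, 1 in ZRS against ZMS, 1 in ZMR against ZPR and 1 in ZRR against ZPR, and with a pseudocount of 1 FPKM 1 was called in ZRS against ZMS. Leaving out 1 library gave 0 to 1 calls in ZMS against ZPS, ZRS against ZMS, ZMR against ZPR, ZRR against ZPR and the difference of the responses, 0 to 2 in ZRR against ZMR and 0 in ZRS against ZPS, and 163 to 200 calls in ZPR against ZPS, 156 to 174 in ZMR against ZMS and 195 to 250 in ZRR against ZRS. The merged and multi-exon loci called in this way were Os12g0114900;Os12g0115150 (without ZMS replicate 2) and, without ZRR replicate 1, Os10g0502566 and Os03g0242200;Os03g0242350 (1.36). With the replicate block the Zn counts stayed at 0 and the tissue counts were 209, 181 and 229. The shares of all loci called under these alternatives are not given here, so the counts cannot be set against all loci.

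Single loci turned in direction between ZPR and ZPS. Os12g0560900 was at 1.15 with zeros taken as missing, and without ZPR replicate 2, over a range of -3.05 to 1.15 when 1 library was left out (-1.64 with all). Os07g0448800 ranged from -0.246 to 0.621 and Os03g0390600 from -0.0711 to 0.168 when 1 library was left out, and with quantile normalization Os08g0562750 was at -0.119 and Os05g0566450 at -0.0846; none of these 4 was called. Os12g0291100 (adjusted p = 0.0376 by limma) lost its call under 8 of 26 alternatives and Os10g0167401 under 1. The cause was not tested. No count of reads per locus was given, so depth limits low loci by an unknown amount.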

Other observations

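Among 830 multi-exon loci without a term, 6 were above 0 in all 9 root libraries and at 0 in all 9 shoot libraries, and 2 the other way. Among 25873 other multi-exon loci these counts were 69 and 56, and among all 34716 loci 109 and 79. Above 0 in the 9 root libraries only were Os04g0445025, Os05g0438550, Os01g0533850, Os10g0111850, Os11g0622700 (0.168 to 0.409 FPKM) and Os12g0194432 (0.234 to 0.846 FPKM), and above 0 in the 9 shoot libraries only were Os03g0128866 and Os12g0550800. These loci were chosen after their values were seen, and at such levels presence depends on depth.

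Replicate 1 often lay at an end of its group, whatever the tissue or the Zn supply. Among 570 members with a mean of at least 0.5 FPKM, replicate 1 was the highest of its group in all 6 groups for 35 (6.14%) and the lowest in all 6 for 41 (7.19%). For replicate 2 the counts were 2 and 0 and for replicate 3 they were 2 and 0. Over all 21883 loci of that level the shares for replicate 1 were 4.14% highest and 8.09% lowest. In Os06g0686700 the median of the replicate 1 libraries was 4.01 times that of the other libraries. Replicate 1 also held the highest share of isoform FPKM outside known exons in every group, at 3.05 to 16.8% against at most 2.50% in replicates 2 and 3. The part of that share, or of any other step in handling, in the pattern was not tested.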
